A study of Mus musculus with 4 samples.

Results

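Genes of the contractile apparatus of smooth muscle were compared between ΔNp63-cKO and control ureters of mouse embryos. They are 37 genes chosen by their function, and each was read through the probe with the brightest mean signal among those carrying its symbol. All 37 have a probe, of 29924 gene names on the array, and 36 passed the filter on dim probes, of 21456 genes that did. The remaining gene, Pln, which encodes phospholamban, an inhibitor of the calcium pump of the sarcoplasmic reticulum, was too dim to pass. Total RNA came from whole ureters of NMRI embryos at stage E15.5. Control embryos had the genotype Trp63(dN-flox/?), with 1 allele not specified and no cre listed, and cKO embryos carried Pax2-cre/+ together with Trp63(dN-flox/dN-flox), in which the floxed allele targets the ΔN form of the transcription factor p63. Pax2 is a gene of the nephric duct and its epithelial derivatives, and the labels do not give the cells in which the cre was active. Since every cKO RNA and no control RNA carried Pax2-cre, effects of the transgene and of the lost allele cannot be told apart. The 4 arrays are 4 pairs, each of a cKO and a control RNA matched for sex, female in replicates 1 and 2 and male in replicates 3 and 4. The cKO RNA was in the red channel in replicates 1 and 3 and in the green channel in replicates 2 and 4. Nothing in the labels gives the number of embryos per RNA or says that the RNAs came from separate litters, so p-values measure the spread between these samples.

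The ureter is a tube of urothelium surrounded by a coat of smooth muscle whose waves of contraction carry urine to the bladder. In smooth muscle cells, calcium bound to calmodulin activates myosin light chain kinase, phosphorylated myosin pulls on actin filaments, and the filaments are anchored at dense bodies and at plaques of the membrane. Many of these genes carry CArG boxes, the binding sites of serum response factor (SRF), which activates them together with its cofactors myocardin and the myocardin-related factors. In the embryonic ureter the muscle forms from mesenchyme next to the epithelium, which signals to it through Sonic hedgehog.

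No contractile gene differed between genotypes at an adjusted p under 0.05 (limma, Benjamini-Hochberg over all genes tested). Of 36 members, 0 fell and 0 rose in the cKO ureter, against 0.699% lower and 0.499% higher among all 21456 genes. At an unadjusted p under 0.05 (limma) there were also 0 members, beside 927 lower and 799 higher among all 21456 genes. The lowest member value was 0.0538 (limma, adjusted p = 0.640), for Ppp1r14a. Mean log2 ratios of cKO over control ran from -0.32 to 0.25 with a median of 0.02, and 15 were negative and 21 positive. With median centring in place of loess, 5 members had the other sign, and the median over all 36 was 0.06 beside 0.03 for all genes. For 32 of the 36 genes (88.9%) the 95% interval of the difference lay inside 1.5-fold either way, which held for 94.8% of all genes. The remaining 4 genes were Pcp4, Ppp1r14a, Cald1 and Myocd. Read as levels relative to control, the lowest interval bound of any member was 0.637 (Pcp4) and the highest was 1.58 (Myocd). In whole-tissue RNA, fewer cells of a type and less RNA per cell cannot be told apart.

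Depth was similar on the 4 arrays, with median green signals of 382 to 416 and median red signals of 519 to 617, and the number of arrays limits the precision. Trp63, the targeted gene, was lower in every cKO RNA, at log2 ratios of -1.39 and -1.18 (female) and -1.30 and -1.62 (male), which average -1.37 ± 0.18 (SD over 4 arrays), 2.59-fold lower (limma, adjusted p = 0.00325). With the mean of all Trp63 probes the value was -0.87 (limma, adjusted p = 0.0180), and with the deposited table it was -1.41 and missed the threshold (limma, adjusted p = 0.203). No source used here places its probe inside or outside the floxed part. For the defining smooth muscle markers Acta2, Myh11, Tagln, Cnn1, Actg2 and Myocd, all spots were well above background in all 8 RNAs. These genes are members read through their brightest probes, and 71.8% to 77.0% of all gene probe spots were well above background per channel. Their detection is thus no test of the tissue label.

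**Figure D1:**
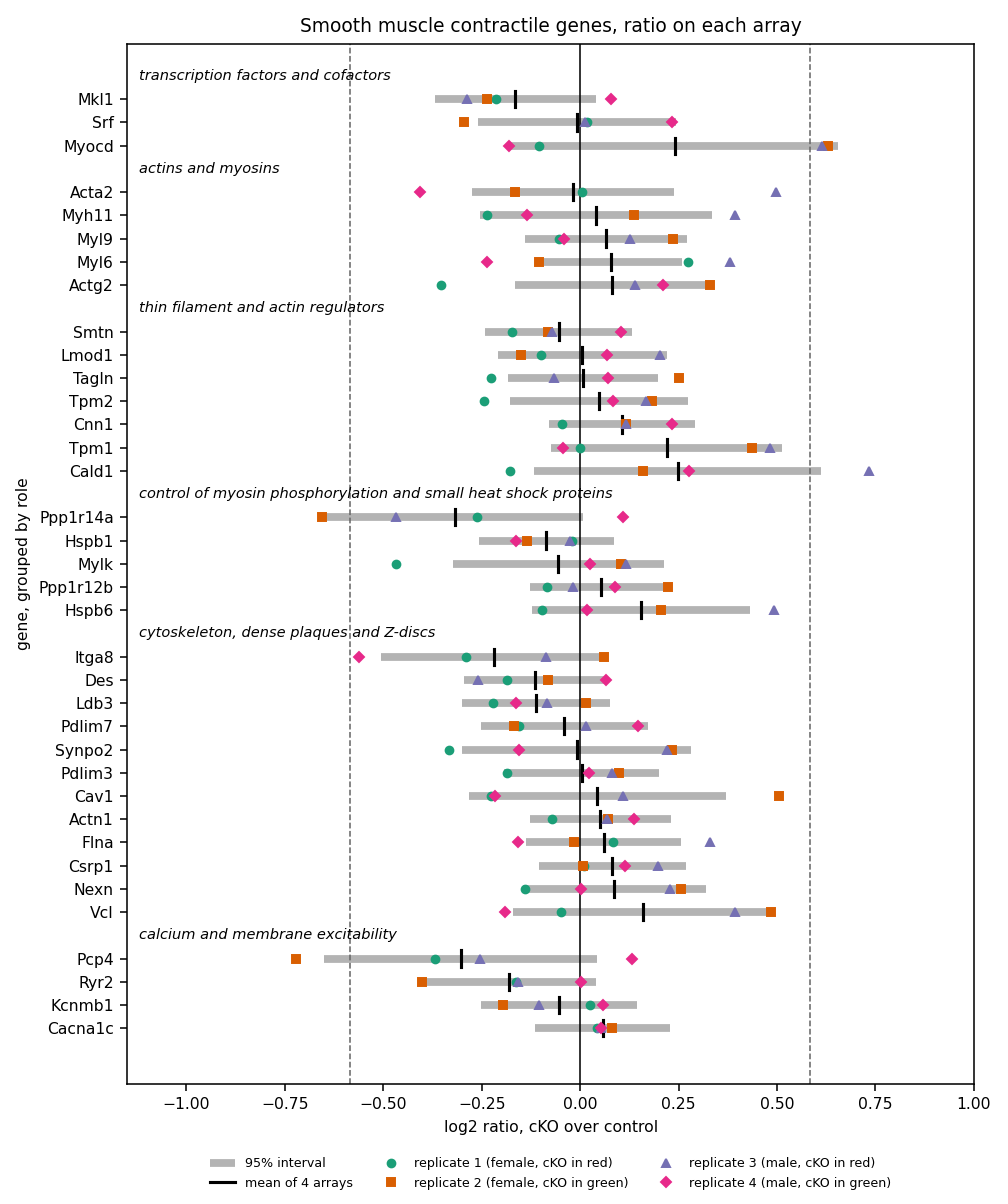
Log2 ratio of cKO over control for the 36 contractile genes tested, grouped by role, with 1 symbol per array, a black bar for the mean of 4 arrays and a grey bar for the 95% interval; dashed lines mark 1.5-fold either way. Every interval crosses 0, and the intervals of Pcp4, Ppp1r14a, Cald1 and Myocd reach past a dashed line.

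The transcription factors come first. Myocd encodes myocardin, the cofactor that directs SRF to smooth and cardiac muscle genes (probe at chr11:64991930-64991989, mm9). Its level, as normalised log2 intensity, was 10.13, 9.64, 9.82 and 10.19 in the control RNAs of replicates 1 to 4 and 10.03, 10.27, 10.44 and 10.01 in the cKO RNAs. The cKO RNA was thus higher in replicates 2 and 3 and lower in replicates 1 and 4, and the groups overlapped. The log2 ratios were -0.10, 0.63, 0.61 and -0.18, with a mean of 0.24 ± 0.44 (SD, n = 4), the widest spread of any member, and a 95% interval from -0.18 to 0.66. Srf itself (chr17:46685306-46685365, mm9) had levels of 12.51, 12.90, 12.49 and 12.37 in control and 12.53, 12.61, 12.50 and 12.60 in cKO RNAs. Its ratios of 0.02, -0.30, 0.01 and 0.23 averaged -0.01 ± 0.22 (interval -0.26 to 0.24), with replicates 1 and 3 near 0 and replicates 2 and 4 on opposite sides. Mkl1, listed today as Mrtfa, encodes a cofactor of SRF that senses free actin. It gave -0.21, -0.24, -0.29 and 0.08, a mean of -0.16 ± 0.16, lower in the cKO RNA in replicates 1 to 3 and higher in replicate 4. Another Mkl1 probe gave a mean of -0.21 ± 0.29, and another Srf probe gave -0.03 ± 0.22.

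CArG boxes were sought in the promoters of the members, since SRF and its cofactors are themselves members. The motif is a pair of C, 6 bases that are each A or T, and a pair of G, a pattern that reads the same on both strands. It was searched over 250 bases before to 50 bases after each RefSeq start (GRCm38.p6). Promoters were found for 32 of the 37 members. Those of Actg2, Myh11, Tagln, Myocd and Nexn were not found and were not searched. An exact box stood in 5 of the 32 (15.6%), Srf, Myl9, Myl6, Vcl and Ldb3, against 1.81% of 27025 genes with a promoter sequence. Boxes with exactly 1 other base among the middle 6 were found in 7 members (21.9%), Myl9 again among them, and in 9.69% of all genes. The exact boxes are shown with their flanks, and with them the Acta2 promoter, whose pair of boxes each differ from the motif at 1 base; each sequence runs 5′ to 3′ on the strand of its gene, with the boxes in capitals.
Srf, chr17:46556185-46556274, minus strand: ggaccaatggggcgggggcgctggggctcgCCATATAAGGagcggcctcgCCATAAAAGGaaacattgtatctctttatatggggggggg
Myl9, chr2:156775273-156775342, plus strand: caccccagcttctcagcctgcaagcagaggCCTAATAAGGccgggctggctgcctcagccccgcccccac
Myl6, chr10:128493020-128493089, minus strand: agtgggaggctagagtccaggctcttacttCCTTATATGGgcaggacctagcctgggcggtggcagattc
Vcl, chr14:20929148-20929210, plus strand: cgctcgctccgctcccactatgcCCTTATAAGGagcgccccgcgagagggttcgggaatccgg
Ldb3, chr14:34588682-34588746, minus strand: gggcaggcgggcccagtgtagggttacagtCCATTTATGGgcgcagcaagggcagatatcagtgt
Acta2, chr19:34255374-34255487, minus strand: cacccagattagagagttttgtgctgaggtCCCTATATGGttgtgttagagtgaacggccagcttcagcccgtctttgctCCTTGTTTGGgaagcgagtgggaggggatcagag
The Srf stretch holds 2 boxes, which begin 82 and 62 bases before the start site. The Acta2 boxes begin 84 and 34 bases before it, those of Vcl, Myl9 and Myl6 begin 227, 161 and 50 bases before their starts, and the Ldb3 box begins 35 or 109 bases before, depending on the start. A match is a description of these letters and shows no binding. The 5 members with an exact box had mean log2 ratios from -0.11 to 0.16 with a median of 0.07. The 26 tested members whose searched promoters held none ran from -0.32 to 0.25, so the ranges overlapped.

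Among actins and myosins, none of 5 genes passed the test, and mean log2 ratios ran from -0.02 to 0.08. Acta2, which encodes smooth muscle α-actin, the main actin of these cells (chr19:34316060-34316119, mm9), had levels of 17.63, 17.69, 17.30 and 17.74 in control and 17.63, 17.52, 17.80 and 17.33 in cKO RNAs. Its log2 ratios were 0.00, -0.17, 0.50 and -0.41, with a mean of -0.02 ± 0.38 (SD, n = 4) and an interval from -0.28 to 0.24. Replicate 3 was high and replicate 4 low, and the levels of the groups overlapped. The signs of Acta2 went with the dye, since both ratios below 0 came from arrays with the cKO RNA in green; the dye term was 0.27 for red over green with an unadjusted p of 0.0431 (limma) and did not pass adjustment.

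Actg2 encodes γ-actin of visceral smooth muscle (chr6:83462904-83462963, mm9). Levels ran from 15.37 to 15.67 in control and from 15.27 to 15.81 in cKO RNAs and overlapped, and the ratios were -0.35, 0.33, 0.14 and 0.21 (mean 0.08 ± 0.30, interval -0.16 to 0.33). The cKO RNA was lower in replicate 1 and higher on the other arrays. Myh11, the heavy chain of smooth muscle myosin and a specific marker of the mature cells (chr16:14202190-14202249, mm9), had levels of 12.83, 12.79, 13.16 and 13.07 in control and 12.59, 12.92, 13.55 and 12.94 in cKO RNAs. Its ratios of -0.24, 0.14, 0.39 and -0.13 averaged 0.04 ± 0.28 (interval -0.26 to 0.33), and the replicate 3 pair was the highest in both genotypes. The regulatory light chain gene Myl9 had a mean ratio of 0.07 ± 0.14. Myl6, the essential light chain, gave 0.08 ± 0.30, positive in replicates 1 and 3 and negative in replicates 2 and 4 as for Acta2, with a dye term of 0.25 and an unadjusted p of 0.0150 (limma). A second Myl6 probe gave 0.06 ± 0.14.

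**Figure D2:**
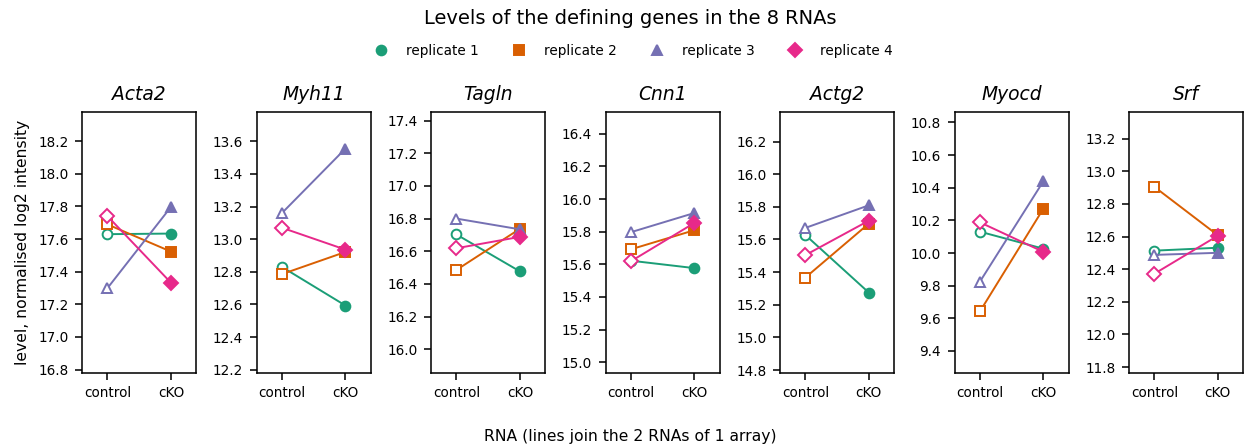
Normalised log2 intensity of 7 defining genes in the control and cKO RNA of each array, with open symbols for control, filled symbols for cKO and a line joining the 2 RNAs of an array; every panel spans the same number of log2 units. The lines go up on some arrays and down on others, as for Acta2 between 17.30 and 17.74 in control and 17.33 and 17.80 in cKO RNAs.

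The 7 genes that bind or regulate the thin filament also held 0 lower and 0 higher genes, and 6 of their 7 means were above 0. Tagln encodes transgelin (SM22), an actin-binding protein (chr9:45738097-45738156, mm9). It had levels of 16.70, 16.49, 16.80 and 16.62 in control and 16.48, 16.74, 16.73 and 16.69 in cKO RNAs, and ratios of -0.23, 0.25, -0.07 and 0.07 with a mean of 0.01 ± 0.20 (interval -0.18 to 0.20). Both female arrays lay farther from 0 than the male arrays, in opposite directions. Cnn1, calponin 1, which restrains the myosin ATPase (chr9:21913058-21913117, mm9), had levels of 15.62, 15.69, 15.80 and 15.62 in control and 15.58, 15.81, 15.91 and 15.85 in cKO RNAs. The ratios were -0.05, 0.12, 0.12 and 0.23, a mean of 0.11 ± 0.12 (interval -0.08 to 0.29), slightly below 0 in replicate 1 and above 0 on the other arrays.

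Cald1 encodes caldesmon, which blocks actin from myosin until calcium rises, and had the highest mean of all members. Its ratios were -0.18, 0.16, 0.73 and 0.28 with a mean of 0.25 ± 0.38 (SD, n = 4, interval -0.12 to 0.61). Replicate 3 was the highest and replicate 1 the lowest. The mean of the other arrays was 0.09 without replicate 3 and 0.39 without replicate 1, and the values fitted with the dye term were 0.02 and 0.48 (limma, adjusted p = 1.00 and 0.209; unadjusted p = 0.00538 without replicate 1). Another Cald1 probe gave 0.26 ± 0.33. Tpm1, α-tropomyosin, gave 0.00, 0.44, 0.48 and -0.04 with a mean of 0.22 ± 0.28 (interval -0.07 to 0.51), so replicates 2 and 3 carried the mean. Of its 4 further probes, 3 had means of 0.13 to 0.21 and 1 had -0.03, the largest disagreement between probes of a member. Tpm2, β-tropomyosin, had a mean of 0.05 ± 0.20, Smtn, smoothelin, of -0.05 ± 0.12, and Lmod1, the actin nucleator leiomodin 1, of 0.01 ± 0.16. The Lmod1 probe was dim, at a mean raw signal of 221.

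Genes that set the phosphorylation of myosin, with the small heat shock proteins that act beside them, ran from -0.32 to 0.15, and 0 of 5 passed. Ppp1r14a, which encodes CPI-17, an inhibitor of myosin phosphatase (chr7:30076540-30076600, mm9), had the lowest mean of all members. Its levels were 13.40, 13.84, 13.67 and 13.29 in control and 13.14, 13.19, 13.20 and 13.40 in cKO RNAs, and its log2 ratios were -0.26, -0.66, -0.47 and 0.11. The cKO RNA was lower in replicates 1 to 3 and higher in replicate 4, where the control RNA had its lowest and the cKO RNA its highest level. The mean was -0.32 ± 0.33 (SD, n = 4) with an interval from -0.64 to 0.01 (limma, adjusted p = 0.640). Without replicate 4 the mean of 3 ratios was -0.46, and the value fitted with the dye term was -0.51 with adjusted p = 0.00575 (limma). Without replicate 2 the mean was -0.21 and the fitted value -0.13 (limma, adjusted p = 0.615). Without replicate 4, 1620 genes of all kinds passed in place of 257, and over all alternatives the adjusted p of Ppp1r14a ran from 0.00575 to 1.00.

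Mylk, the light chain kinase gene, had ratios of -0.47, 0.10, 0.12 and 0.03 with a mean of -0.06 ± 0.28. Replicate 1 stood apart below the others, and a second, dim probe (mean raw signal 133) gave -0.02 ± 0.05. Ppp1r12b, a targeting subunit of myosin phosphatase, had a mean of 0.05 ± 0.13 through a dim probe (mean raw signal 269). Hspb6, the relaxation-linked heat shock protein HSP20, gave -0.10, 0.21, 0.49 and 0.02, a mean of 0.15 ± 0.26 (interval -0.12 to 0.43) led by replicate 3. Hspb1, which encodes HSP27, a chaperone that stabilises actin, was the only member below 0 on all 4 arrays, with a mean of -0.09 ± 0.07.

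Genes of the cytoskeleton, the membrane plaques and Z-disc-like bodies held 0 lower and 0 higher genes of 12. Itga8 encodes the α8 integrin subunit of smooth muscle and mesenchyme (chr2:12028462-12028521, mm9). It had levels of 13.48, 13.43, 13.44 and 13.78 in control and 13.19, 13.49, 13.35 and 13.22 in cKO RNAs, and ratios of -0.29, 0.06, -0.09 and -0.56. The control RNA of replicate 4 was the highest of the 8, and replicate 2 was the exception to the direction. The mean was -0.22 ± 0.27 (interval -0.50 to 0.07; limma, adjusted p = 0.846). Without replicate 2 the mean of 3 ratios was -0.31 and the fitted value -0.37 with adjusted p = 0.0315 (limma). Without replicate 4 these were -0.10 and -0.06 (limma, adjusted p = 0.656).

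Vcl, vinculin, which links integrins to actin, had ratios of -0.05, 0.49, 0.39 and -0.19, a mean of 0.16 ± 0.33 (interval -0.17 to 0.49). Like Myocd, it was higher in replicates 2 and 3 and lower in replicates 1 and 4. Cav1, the caveolin of the membrane's calcium-handling pits, had the same signs and a mean of 0.04 ± 0.34. Flna, the actin cross-linker filamin A, had a mean of 0.06 ± 0.21, and Actn1, α-actinin 1 of dense bodies, of 0.05 ± 0.09. Des, the intermediate filament protein desmin, had a mean of -0.11 ± 0.14, Ldb3, a Z-disc scaffold, of -0.11 ± 0.10, and a second, dim Ldb3 probe (mean raw signal 134) gave -0.13 ± 0.02. Csrp1, a LIM protein of smooth muscle, was above 0 on all 4 arrays at 0.08 ± 0.09. The actin-binding adaptor genes Synpo2, Pdlim3, Pdlim7 and Nexn had means of -0.01 ± 0.28, 0.00 ± 0.13, -0.04 ± 0.15 and 0.09 ± 0.19.

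Of 5 genes of calcium handling and excitability, 4 were tested and 0 passed. Pcp4 encodes a small calmodulin-binding peptide (chr16:96747241-96747300, mm9). Its levels were 10.96, 11.80, 11.26 and 11.09 in control and 10.59, 11.08, 11.01 and 11.22 in cKO RNAs, with ratios of -0.37, -0.72, -0.25 and 0.13. The cKO RNA was lower in replicates 1 to 3, most so in replicate 2, and higher in replicate 4. The mean was -0.30 ± 0.35 with an interval from -0.65 to 0.04 (limma, adjusted p = 0.747). Without replicate 4 the mean of 3 ratios was -0.45 and the fitted value -0.52 with adjusted p = 0.00414 (limma). Without replicate 2 these were -0.16 and -0.09 (limma, adjusted p = 0.766).

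Ryr2, a calcium release channel of the sarcoplasmic reticulum, gave -0.16, -0.40, -0.16 and 0.00, a mean of -0.18 ± 0.17 (interval -0.40 to 0.04), again with replicate 2 lowest and replicate 4 highest. Its probe was the dimmest of the members tested, at a mean raw signal of 167. With Agilent's processed signals its value was -0.27, the largest shift of any member in that alternative. Cacna1c, the pore of the L-type calcium channel that starts contraction, was above 0 on all arrays by a mean of 0.06 ± 0.02, the narrowest spread of any member, with an interval from -0.11 to 0.23. Kcnmb1, the β1 subunit of the large-conductance potassium channel, had a mean of -0.05 ± 0.12. Pln had 0 spots well above background in either RNA on at least 1 array, and its measured levels of 6.31 ± 0.12 in control and 6.40 ± 0.09 in cKO RNAs (SD, n = 4) were not used for a ratio.

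The arrays differed in how the members lay as a group. Over 36 members, the median SD of the 4 ratios was 0.20, against 0.157 over all genes. The member medians were -0.15, 0.08, 0.11 and 0.04 in replicates 1 to 4, and 28, 14, 12 and 13 of the 36 were below 0, beside 51.5%, 51.0%, 51.9% and 48.7% of all genes. Levels centred per gene gave member medians of -0.10, 0.03, 0.14 and 0.01 in the 4 cKO RNAs and 0.01, -0.01, 0.03 and -0.02 in the 4 control RNAs, so cKO RNAs 1 and 3 lay farthest from the rest. The ranges of cKO and control levels overlapped for all 37 genes, the dim Pln among them. These ranges ignore the pairing within arrays. The share over all genes was not computed, so the count does not set the members apart. These array medians depended on the scaling: with Agilent's processed signals they were -0.18, 0.15, 0.06 and 0.07, but with median centring in place of loess they were 0.08, -0.11, 0.36 and -0.02, positive where the cKO RNA was in red and negative where it was in green. Under that centring the medians of all genes had the same signs, at 0.09, -0.04, 0.11 and -0.03, and in replicate 1 the members lay slightly below them.

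The same sign on all 4 arrays was seen for 3 members (8.33%), Hspb1 below 0 and Csrp1 and Cacna1c above it, and for 15.3% of all genes. Signs negative in replicate 1 and positive in the other three were held by 9 members (25%), Actg2, Cnn1, Cald1, Tpm2, Mylk, Hspb6, Actn1, Pdlim3 and Nexn, and by 3.43% of all genes. Positive signs in replicates 2 and 3 alone were held by 6 members, Myocd, Myh11, Myl9, Cav1, Vcl and Synpo2 (16.7%), and by 12.6% of all genes. Negative signs in replicates 1 to 3 and a positive one in replicate 4 were held by Ppp1r14a, Pcp4, Mkl1, Ryr2, Des and Smtn (16.7%) and by 13.9%. These groupings come from the ratios after loess and were made after the values were seen and are a description with no test.

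Differences between the sexes were looked for with a term for female minus male in the cKO effect. At adjusted p under 0.05, 0 of 36 members passed, against 0.0699% of all genes (limma). At an unadjusted p under 0.05, 0 members passed, beside 202 of all 21456 genes (limma). The widest differences were those of Cald1, at -0.51 with an interval from -1.04 to 0.02, and Pcp4, at -0.48 with an interval from -1.01 to 0.05. With 2 arrays per sex the intervals were wide. The variance prior of this fit was infinite, so all genes shared a single variance and all intervals had the same width. These intervals and p-values thus do not reflect each gene's own spread between arrays. The dye term passed adjustment for 0 of all genes (428 at an unadjusted p under 0.05, with Acta2 and Myl6 among them).

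Upstream regulators of ureteric smooth muscle, members left out, showed 0 lower and 0 higher of 51 tested, with a median of 0.03. By limma, 6 of the 51 had an unadjusted p under 0.05, 5 of them above 0. Among all 21456 genes, 927 were lower and 799 higher at that unadjusted p. Ptch1, the receptor and target of Sonic hedgehog, had log2 ratios of 0.54, 0.32, 0.48 and 0.35, a mean of 0.42 ± 0.10 with adjusted p = 0.0651 (limma). It was above 0 on all 4 arrays, and over the alternatives its adjusted p ran from 0.0113 without replicate 2 to 0.469 without replicate 1 (limma), with fitted values from 0.41 to 0.51. It passed with median centring (0.0471), the mean of its probes (0.0488), no dye term (0.0249), channels as separate RNAs (0.0181) and without replicate 2 (0.0113) or replicate 4 (0.0116), and missed the threshold under the others. Hhip, a hedgehog target that binds the ligand, had a mean of 0.47 ± 0.27 (limma, adjusted p = 0.200), and Hes1, a target of Notch, of -0.28 ± 0.12 (limma, adjusted p = 0.239). Tbx18, which specifies the ureteric mesenchyme, had a mean of 0.03 ± 0.20, Tshz3, needed for the muscle to form, of 0.03 ± 0.21, and the ligand gene Bmp4 of 0.09 ± 0.35.

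A wider list of smooth muscle genes for contraction, calcium, coupling and receptors, members left out, had 0 lower and 1 higher of 95 tested, with a median of 0.02. The share called higher over all 21456 genes was 0.499%. By limma, unadjusted p was under 0.05 for 3 below and 3 above 0, beside 927 and 799 of all 21456 genes. The gene that rose was Itga7, the laminin-binding α7 integrin subunit. Its ratios of 0.49, 0.47, 0.49 and 0.56 averaged 0.50 ± 0.04 (SD, n = 4; interval 0.33 to 0.68; limma, adjusted p = 0.0378), higher on all 4 arrays. It missed the threshold without replicate 1 (adjusted p = 0.145) or replicate 3 (0.184), with Agilent's processed signals (0.0503), with no filter (0.0629) and with the deposited table (0.186), at fitted values of 0.50 to 0.52 (limma). Itga7 is also known from skeletal muscle. Cav3, the caveolin of striated muscle, had a mean of -0.52 ± 0.25 (limma, adjusted p = 0.142), and Pdlim1, an actin-binding adaptor, of -0.25 ± 0.10 (limma, adjusted p = 0.347).

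Markers of other cells were read beside these genes. Of 42 striated muscle markers tested, 3 fell and 0 rose, with a median of -0.22 and array medians of -0.10, -0.23, -0.39 and -0.12. At an unadjusted p under 0.05, 18 of the 42 were lower, beside 927 of all 21456 genes (limma). The 3 that fell were Myl1, a fast myosin light chain, at -0.78 ± 0.12, Ckm, muscle creatine kinase, at -0.71 ± 0.26, and Casq2, a calcium store protein, at -0.71 ± 0.19 (limma, adjusted p from 0.0105 to 0.0285). With no filter on dim probes Ckm and Casq2 missed the threshold, with the deposited table all 3 did, and with channels as separate RNAs Myl1 did (limma, adjusted p = 0.163). The summed level of the list, in normalised intensity units, was 145152, 169579, 172170 and 162533 in the cKO RNAs of replicates 1 to 4. In their control RNAs it was 160169, 164813, 173524 and 186805. The cKO sum was thus higher in replicate 2, close to control in replicate 3 and lower in replicates 1 and 4. The list median was below 0 on all 4 arrays. Myf5 was the only striated marker that did not pass the filter on dim probes. Some smooth muscle members are also expressed in striated muscle, among them Ryr2, Des, Ldb3, Nexn, Pdlim3 and, in cardiac muscle, Myocd. Their mean log2 ratios were -0.18, -0.11, -0.11, 0.09, 0.00 and 0.24, and this list is not complete. The part of striated muscle in the members' values was not tested. Pericyte and vascular smooth muscle markers had 0 lower and 0 higher of 11 with a median of -0.04, fibroblast and adventitia markers 0 and 0 of 14 with -0.07, endothelial markers 0 and 0 of 10 with 0.12, and neuron and glia markers 0 and 0 of 15 with -0.13.

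**Figure D3:**
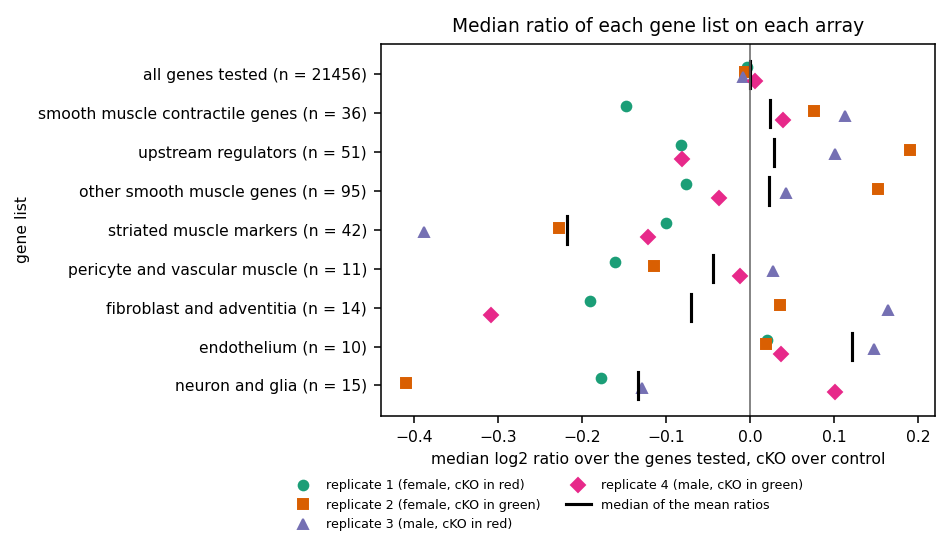
Median log2 ratio of cKO over control on each array for all genes, the contractile genes and 7 further gene lists, with 1 symbol per array and a black bar for the median of the mean ratios. The contractile genes lie at -0.15 in replicate 1 and at 0.04 to 0.11 on the other arrays, and the striated muscle markers lie below 0 on all 4 arrays.

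Urothelial markers, which include the targeted gene, had 4 lower and 1 higher of 16. Beside Trp63 these were Krt5 at -1.87 ± 0.42, Grhl3 at -0.68 ± 0.22 and Upk2 at -0.54 ± 0.11, and Krt18 was higher at 0.50 ± 0.14 (limma, adjusted p from 0.00325 to 0.0468). Over all 21456 genes, 0.699% were lower and 0.499% higher at the same threshold. These marker lists were chosen with earlier results of these data known, so their counts are a description. The kidney list had 0 lower and 1 higher gene of 9 tested, Cubn at 2.22 ± 0.28. Its median was -0.12, and 5 of the 9 means were negative. Mesothelium had 0 lower and 1 higher of 5, Msln at 1.05 ± 0.11, with a median of 0.07. Testis and germ cells had 0 lower and 1 higher of 6, Prm1 at 5.29 ± 0.16, with a median of 0.12. For Cubn, Msln and Prm1 the adjusted p ran from 1.11e-05 to 0.00431 (limma). Given that small spread, Prm1 was higher in the female as well as the male replicates, and the source of its signal was not tested. The 75th percentile of the mean ratios in the testis and germ cell list was 0.18, so most of that list did not follow Prm1. Whether kidney, mesothelial or germ cells were present in the ureters was not tested either. The part of urothelial or other cells in the members' values was also not tested.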

How the data were processed

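Pairs of cKO and control RNA were read on 4 Agilent arrays with 2 colours (200 ng of total RNA per labelling, per the labels). The deposited spot intensity values (mean signals and median local backgrounds) came from Agilent Feature Extraction 10.7.3.1, per the submitters' processing notes. The authors' deposited value table holds log2 ratios of cKO over control, centred on 0: compared with the arrays' processed signals its slopes were 0.994 to 1.00, and 32.2% to 32.6% of its values are exactly 0. Probe coordinates are of mm9, per the file headers; exon positions were not analysed here.

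Backgrounds were corrected with normexp (offset 50), ratios normalised by loess within each array (control spots at weight 0), nonuniform spots left out (17 to 33 per array) and the 4 spots of a probe averaged; no spot was saturated. A probe passed if, in 1 of the RNAs, the share of spots well above background was 0.5 or more on every array. The brightest probe stood for its gene; 14 members had further probes, and 16 of the 19 that passed had its sign. Channel levels were taken after loess and Aquantile. The model (limma 3.58.1, R 4.3.3; lmFit, eBayes) had a cKO term and a dye intercept, with the array as the pair. All p-values are two-sided, with Benjamini-Hochberg adjustment over 21456 genes and a threshold of 0.05. The fit was also run on simulated ratios drawn from its own fitted variance prior and dye term. Such a run tests the code and not how the model suits these arrays. All arrays lie on 1 slide. Promoter sequences and names came from RefSeq (GRCm38.p6).

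The members and gene lists were chosen with earlier results of these data known. All members are named, with array values for the 5 lowest and 5 highest means and 7 defining genes; of other lists, called genes and up to 3 with the smallest p (Tbx18, Tshz3 and Bmp4 were added after their values were seen). Alternatives were Agilent's processed signals, median centring, no filter, the mean of a gene's probes, the deposited table, no dye term, a sex term, channels as separate RNAs and each replicate left out.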

Additional observations from a re-analysis of the deposited data

Results flagged for a closer look

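Among the log2 ratios of 36 members on 4 arrays, that of Mylk stood apart in replicate 1 at -0.47, where the gap to the nearest other array was 0.844 of the whole range. Among the array medians of 18 gene lists, that of the endothelial markers stood apart in replicate 3 at 0.15, with a gap of 0.860 of the range. By chance this happens in about 1 in 20 groups.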

How the results depend on the processing

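The count of called members was 0 in both directions under every alternative with all 4 arrays (limma; unadjusted p under 0.05 for 0 to 2 members), and the members' median ran from 0.02 to 0.06 in these and from -0.04 to 0.09 with a replicate left out. Leaving out each replicate in turn gave 0 to 2 lower members (Itga8 without replicate 2, Ppp1r14a and Pcp4 without replicate 4), 0 to 2 lower and 0 to 5 higher upstream regulators, 0 to 2 lower and 0 to 5 higher other smooth muscle genes, and 3 to 9 lower and 0 to 2 higher striated markers. Of all 21456 genes, 283 to 1620 were then called in place of 257; 3 arrays leave fewer residual degrees of freedom, and the variance prior differed (infinite without replicate 1 or 3, 8.48 without 2 or 4).

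Other smooth muscle genes had 0 higher with Agilent's processed signals, no filter or the deposited table. Upstream regulators had 1 higher with median centring, the mean of all probes or no dye term, and 2 with a sex term. With no replicate block (8 channels as separate RNAs) they had 1 lower and 1 higher. The sex term gave 1 lower other smooth muscle gene and 9 lower striated markers, and there was 1 lower striated marker with no filter and 0 with the deposited values. Genes called over the whole array were 86 with no filter, 461 with no dye term, 543 with a sex term, 387 with no replicate block and 1 with the deposited table. The variance prior was infinite with the sex term too. Of the member values, 464 moved by less than their spread between arrays without a new call, Cacna1c moved to 0.11 with median centring and 3 were new calls, those without a replicate named above. A value that changed sign could still count among the 464. Signs changed for 4, 9, 9 and 3 members without replicates 1 to 4, for 5 with median centring and for 2 with the deposited table. Leaving out population outlier spots, chosen after seeing the data, gave 261 calls and 0 members. The intervals given state the precision that 4 arrays allow. Values without a replicate are fitted with the dye term, which weights the remaining arrays unequally.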
